A study of Mus musculus with 24 samples.

Results

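The Wnt ligands, their receptors and co-receptors, the R-spondins and the inhibitors of the pathway were followed through Tead1 and Tead4 silencing and through differentiation in mouse muscle cells. The members were 50 of the 28109 genes of the count table and were taken by symbol alone, with no measured value used. They comprised 19 Wnt ligands, 10 Frizzled receptors (Fzd1 to Fzd10), the 2 Lrp co-receptors Lrp5 and Lrp6, 4 R-spondins (Rspo1 to Rspo4), 3 Lgr receptors (Lgr4, Lgr5 and Lgr6), 9 secreted inhibitors (Sfrp1, Sfrp2, Sfrp4, Sfrp5, Dkk1, Dkk2, Dkk3, Dkk4 and Wif1) and 3 intracellular feedback inhibitors (Axin2, Nkd1 and Nkd2).

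C2C12 is an established myoblast line of the C3H mouse strain, and the primary myoblasts (PMs) were cultured from the skeletal muscle of C57/B6 mice. Each was transfected either with siRNA against luciferase (siControl), which has no target in mouse cells, or with siRNA against both Tead1 and Tead4 (siTead1/4), so every library came from transfected cells. Poly(A) RNA was sequenced on the day called day 0 and after 3 and 6 days in differentiation medium. This gave 12 groups of 2 replicates and 24 libraries. PMs are a culture from muscle tissue and may hold other cell types, and C2C12 is a clonal line, so a difference between them is also one of strain and origin.

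Wnt proteins are secreted lipid-modified glycoproteins that bind Frizzled receptors. In the canonical branch Frizzled pairs with Lrp5 or Lrp6, the destruction complex is held back, and beta-catenin accumulates and acts with TCF/LEF factors. R-spondins bind Lgr receptors and raise Frizzled levels at the cell surface. Sfrp proteins and Wif1 bind Wnt ligands outside the cell, most Dkk proteins act on Lrp5 and Lrp6, and Axin2 and Nkd proteins damp the signal inside the cell, Axin2 being a target of the pathway as well. In muscle, Wnt signals are known from the embryonic somite and from the satellite cells that repair fibres, and Tead factors are DNA-binding partners of Yap and Taz that recognise the MCAT element of many muscle promoters.

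Total counts per library lay between 25453830 and 52784510. Levels below are CPM (counts scaled to the effective size of each library), and levels of different genes are compared only as CPM per kb of gene length. A gene was called when the edgeR quasi-likelihood test gave a Benjamini-Hochberg adjusted p below 0.05 over all genes tested and an absolute log2 fold change above 1. Unless another setting is named, edgeR calls are those of its main fit, with a filter on low counts and no replicate term. Errors of log2 fold changes are standard errors (SE), and means of 2 replicates carry their SD. Where a group had at most 3 counts in every library, only a bound on the fold change is given, computed against 3 counts per library. The labels call the replicates biological, and the p-values measure the spread between these libraries. The siTead1/4 libraries held 23.6 to 46.1% of the control sum of Tead1 and Tead4 in PMs and 7.86 to 59.8% in C2C12. In C2C12, Tead1 was not called at any day and Tead4 was called at day 0 and day 3. In PMs, Tead4 was called at all 3 days and Tead1 at day 0 and day 3. The C2C12 siTead1/4 replicates lay farther apart than those of the other groups, with an SD of the log2 difference over genes of 0.418 to 0.504, compared with 0.212 to 0.357. The summed level of 11 myogenic markers rose from between 1137 and 1308 CPM at day 0 to between 13140 and 13370 CPM at day 3 in siControl C2C12, and from between 7770 and 8367 to between 26230 and 28150 CPM in siControl PMs. Of 7 macrophage markers, the defining Ptprc and Emr1 had at most 3 counts in any library, and the others reached between 15 (Csf1r) and 320 counts (Cd14), the list summing to between 3.06 and 9.35 CPM. Of 7 adipocyte markers, Adipoq, Plin1 and Cidec had at most 3 counts in any library, whereas Fabp4 reached 77, Cebpa 1594, Pparg 2456 and Lpl 4461 counts. Fibroblast markers summed to between 801.8 and 879 CPM in siControl PMs at day 0 and to between 4830 and 6546 CPM at day 6. In siControl C2C12 they summed to between 1774 and 2569 CPM at day 0 and to between 3395 and 3707 CPM at day 6. Of these markers, Tcf21 had 0 counts in every library.

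Of the 50 members, 36 passed the filter on low counts in C2C12 and 38 in PMs, and 40 passed in the fit of both. The other 10 reached 10 counts in no library: the ligands Wnt3a, Wnt7a, Wnt8a, Wnt8b, Wnt9b and Wnt16, the R-spondin Rspo4, and the inhibitors Dkk1, Dkk4 and Sfrp5. Fzd10, Rspo2, Wnt2 and Nkd1 were also untested in C2C12, and Rspo1 and Wnt1 were untested in PMs. The level of Wnt5b is uncertain, because the gene overlaps Fbxl14 on the other strand, which reached 3281 counts, and the reads carry no strand.

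The promoters of Wif1 and Sfrp2, the inhibitors with the most calls after silencing, and of Fzd1, the receptor with the lowest adjusted p there, are shown beside that of Lgr4, which was called in no silencing comparison but holds the MCAT core. Fzd1 and Lgr4 were chosen after their values were seen. Each run is the 250 bases before the start of the gene, read 5′ to 3′ on the strand of the gene, from RefSeq on GRCm38.p6. They lie at chr10:121033754-121034003 on the plus strand (Wif1), chr3:83766071-83766320 on the plus strand (Sfrp2), chr5:4758217-4758466 on the minus strand (Fzd1) and chr2:109917397-109917646 on the plus strand (Lgr4). Capitals mark the MCAT core CATTCC, the TCF/LEF core CTTTGAT and the general E-box CANNTG of bHLH factors, on either strand.
Wif1: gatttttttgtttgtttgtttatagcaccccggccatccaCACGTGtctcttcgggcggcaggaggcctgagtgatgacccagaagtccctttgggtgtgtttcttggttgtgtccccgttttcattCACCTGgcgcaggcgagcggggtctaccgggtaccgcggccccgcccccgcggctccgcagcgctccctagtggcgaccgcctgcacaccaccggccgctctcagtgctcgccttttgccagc
Sfrp2: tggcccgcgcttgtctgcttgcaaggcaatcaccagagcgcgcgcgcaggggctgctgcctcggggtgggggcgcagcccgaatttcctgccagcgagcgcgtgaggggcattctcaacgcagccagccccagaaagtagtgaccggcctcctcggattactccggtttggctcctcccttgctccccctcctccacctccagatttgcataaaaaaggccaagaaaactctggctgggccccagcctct
Fzd1: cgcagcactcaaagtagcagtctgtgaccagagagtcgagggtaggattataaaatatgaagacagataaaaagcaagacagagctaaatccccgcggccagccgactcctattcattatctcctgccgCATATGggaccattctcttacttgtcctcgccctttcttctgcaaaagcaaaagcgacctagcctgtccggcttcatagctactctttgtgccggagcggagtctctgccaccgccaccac
Lgr4: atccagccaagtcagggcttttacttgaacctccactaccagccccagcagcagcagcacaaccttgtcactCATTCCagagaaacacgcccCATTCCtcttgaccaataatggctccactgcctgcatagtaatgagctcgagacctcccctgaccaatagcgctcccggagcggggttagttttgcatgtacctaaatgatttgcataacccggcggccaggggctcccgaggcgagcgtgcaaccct
The Wif1 stretch holds an E-box at 2 places, that of Sfrp2 holds none of the 3 motifs, and that of Fzd1 holds an E-box once. The Lgr4 stretch holds the MCAT core at 2 places. Over the 300-base promoter windows of RefSeq, 33 members had an entry, with 36 promoters. The MCAT core stood in 2 of these 36 (5.56%), Lgr4 and Wnt5b, compared with 14.7% of 32851 promoters of that length. The TCF/LEF core stood in 2 of 36 (5.56%), Wnt11 and Wnt5b, compared with 3.73%, and an E-box in 23 of 36 (63.9%), compared with 72.3%. A match is a description of these letters and no evidence of binding.

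Frizzled receptors and Lrp co-receptors were among the most abundant members at day 0. Per kb of gene length, the highest members of siControl C2C12 at day 0 were Lgr6 (27.7 ± 8.05 CPM per kb, SD, n = 2), Fzd6 (18.8 ± 5.96), Fzd7 (17.1 ± 1.54), Fzd2 (13.9 ± 0.751), Lrp5 (12.3 ± 0.548) and Fzd1 (10.6 ± 0.987). In siControl PMs at day 0 they were Fzd2 (15.0 ± 0.847 CPM per kb, SD, n = 2), Fzd7 (12.6 ± 0.82), Wnt9a (10.7 ± 2.01), Lrp5 (9.94 ± 0.0779), Lrp6 (9.64 ± 0.00298) and Fzd1 (8.75 ± 1.57). A receptor or co-receptor held each of these places but that of Wnt9a. The ranges of neighbours in either order overlapped for several pairs, such as Fzd6 and Fzd7 in C2C12. By day 3 a ligand led in C2C12, Wnt10a with 37.4 ± 4.77 CPM per kb, whereas Fzd7 (21.1 CPM per kb) led in PMs.

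**Figure D1:**
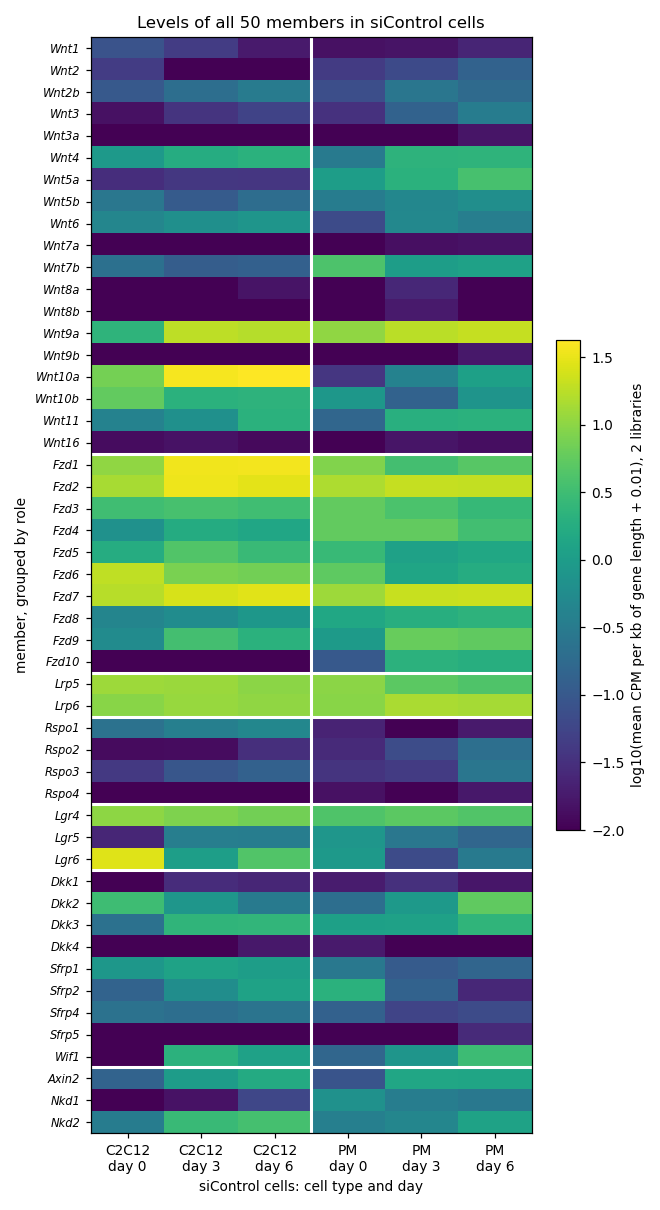
Mean level of the 50 members in the 6 siControl groups (n = 2 each), as log10 of CPM per kb of gene length plus 0.01, with colours from dark blue (low) to yellow (high). Fzd2, Fzd7, Lrp5 and Lrp6 are towards yellow in all 6 groups, whereas the 10 members that never reached 10 counts are dark throughout.

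By the calls of the main edgeR fit, silencing Tead1 and Tead4 in PMs raised inhibitors, an R-spondin, a ligand and a receptor. It lowered 1 other receptor. At day 0 edgeR called 2 members up and 1 down of 38, compared with 1.50% of 16144 genes up and 1.10% down. At day 3 it called 5 up and 0 down, compared with 2.10% and 1.20%, and at day 6 it called 1 up and 0 down, compared with 0.465% and 0.279%. DESeq2 called 6, 9 and 2 members at day 0, 3 and 6, and 454, 588 and 224 genes in all. Among its calls were falls of Fzd9 at day 0 and day 3, Dkk3 at day 0, Wnt11 at day 3 and Dkk2 at day 6. Without the filter on low counts, or with a term for the replicate number (replicate block), edgeR called these falls too, and that of Dkk2 at day 3. Both settings also called rises of Nkd1 and Wnt10a at day 3 and day 6, Wif1 at day 0 and Rspo3 at day 6. The 5 members that edgeR called up at day 3 were Wif1, Fzd1, Sfrp2, Rspo3 and Wnt3. The median log2 fold change of the tested members was -0.10, 0.09 and 0.09 at day 0, 3 and 6, and that of all genes tested was -0.01, 0.01 and 7e-04. Markers of other cell types moved at these days as well. Of 7 endothelial markers, 1 was called up at day 0 (Tek, from 0.942 to 2.70 CPM, log2 fold change 1.50) and 1 at day 3 (Vwf, from 4.34 to 14.6 CPM, log2 fold change 1.75). The 7 summed to between 7.27 and 14.8 CPM with siControl and between 12.1 and 25.7 CPM with siTead1/4 at day 0, and to between 7.08 and 20.0 and between 15.7 and 28.3 CPM at day 3. Their median log2 fold change was 0.505 at day 0, -0.52 at day 3 and -0.70 at day 6, so most of them fell at day 3 and day 6. Of 9 tested fibroblast markers, 2 were called down at day 6 (Dcn, log2 fold change -2.46, and Lum, -2.79). All 10 listed fibroblast markers summed to between 1064 and 1313 CPM with siTead1/4 at day 0, above siControl, and to between 4658 and 6080 CPM at day 6, overlapping siControl. Of 9 Schwann cell markers, 8 were tested and 0 were called by edgeR at any day, and they summed to between 374.1 and 386.9 CPM with siControl and between 253.6 and 303.4 CPM with siTead1/4 at day 3. Their part in the result was not tested.

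Wif1, a secreted protein that binds Wnt ligands (mm9 chr10:120471016-120537706, plus strand), was called at 2 of the 3 days in PMs. At day 3 it measured 1.66 and 1.87 CPM in the siControl libraries and 12.8 and 15.8 CPM in the siTead1/4 libraries. At day 6 it measured 6.60 and 7.56 CPM with siControl and 24.9 and 26.3 CPM with siTead1/4. The groups did not overlap at either day, and both replicates of each group lay close together. The log2 fold change was 3.00 (SE 0.266, adjusted p = 0.00053) at day 3 and 1.85 (SE 0.244, adjusted p = 0.00779) at day 6. At day 0 the gene was low, with 0.191 and 0.479 CPM against 0.658 and 0.929 CPM, a log2 difference of 1.30 that missed the threshold (adjusted p = 0.0546). The call at day 3 held with each of its 4 libraries left out in turn (adjusted p between 0.00293 and 0.00701), whereas that at day 6 was lost without siControl replicate 1 (0.0588).

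Sfrp2, a secreted Frizzled-related protein that binds Wnt ligands (mm9 chr3:83570243-83578238, plus strand), fell during PM differentiation and stood higher after silencing. At day 0 it measured 4.79 and 4.06 CPM with siControl and 16.2 and 10.5 CPM with siTead1/4. At day 3 the values were 0.281 and 0.278 CPM with siControl and 1.76 and 1.92 CPM with siTead1/4, and the groups overlapped at neither day. The log2 fold change was 1.58 (SE 0.300, adjusted p = 0.0122) at day 0 and 2.70 (SE 0.389, adjusted p = 0.00312) at day 3. At day 6 both siControl libraries had at most 3 counts and the siTead1/4 level was at least 2.44-fold higher, which was not called (adjusted p = 0.142). The day 3 call held with each library left out in turn (adjusted p between 0.0175 and 0.0357) but not when the 24 libraries of both cell types shared a fit (0.302). The day 0 call was lost without siControl replicate 1 (0.0876), siControl replicate 2 (0.101) or siTead1/4 replicate 1 (0.13), and in the shared fit (0.479).

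Dkk2, which binds Lrp5 and Lrp6, and Dkk3, a divergent member of the Dkk family, were not called by the main edgeR fit in PMs. Dkk2 measured 4.32 and 2.20 CPM with siControl and 1.59 and 1.07 CPM with siTead1/4 at day 3, and 28.9 and 12.0 against 9.35 and 5.30 CPM at day 6. All siTead1/4 values were below the siControl values at these days, but the siControl replicates of day 6 lay far apart. DESeq2 called Dkk2 down at day 6 (log2 fold change -1.48, adjusted p = 0.0437). Without the filter on low counts edgeR called Dkk2 down at day 3 (adjusted p = 0.0118) and day 6 (0.00302). It did so with the replicate block as well (0.00608 at day 3 and 0.00413 at day 6). Dkk3 measured 3.35 and 4.20 CPM with siControl and 1.79 and 1.42 CPM with siTead1/4 at day 0, without overlap. DESeq2 called Dkk3 down there (-1.25, adjusted p = 0.0226). So did edgeR without the filter (0.00717), with the replicate block (0.0415) and with only the 4 libraries compared (0.025). Of the 6 tested secreted inhibitors, the main edgeR fit left 5 uncalled at day 0, with log2 fold changes from -1.24 to 1.30. It left 4 at day 3, from -1.29 to 0.40, and 5 at day 6, from -1.48 to 2.76, the highest being that of Sfrp2.

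Rspo3, a secreted R-spondin and ligand of Lgr receptors (mm9 chr10:29172915-29255673, minus strand), was called at day 0 and day 3 in PMs. The siControl libraries had 3 and 2 counts at day 0 and 1 and 5 counts at day 3, whereas the siTead1/4 libraries had 27 and 32 and then 40 and 64 counts. At day 6 siControl had risen to 12 and 25 counts and siTead1/4 measured 50 and 72. No siTead1/4 count lay as low as a siControl count of the same day. At day 0 siControl stood at the floor and Rspo3 was at least 8.55-fold higher with siTead1/4 (adjusted p = 0.0144). At day 3 the log2 fold change was 3.88 (SE 0.612, adjusted p = 0.00489), and at day 6 a log2 difference of 1.61 was not called. These counts are small: the day 0 call was lost whichever of its 4 libraries was left out (adjusted p between 0.0651 and 0.126) and the day 3 call without siControl replicate 1 (0.0512). The receptors Lgr4, Lgr5 and Lgr6 were called at no day, with log2 fold changes from -0.89 to 1.09 over the 3 days.

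Fzd1, a Frizzled receptor (mm9 chr5:4753842-4758216, minus strand), was called in PMs at day 3. At day 0 it measured 33.4 and 43.1 CPM with siControl and 47.7 and 62.2 CPM with siTead1/4. At day 3 it measured 14.6 and 15.6 CPM with siControl and 53.3 and 43.4 CPM with siTead1/4, and at day 6 the values were 17.6 and 25.1 against 27.8 and 35.7 CPM. Each siTead1/4 value was above both siControl values of its day. The log2 fold change at day 3 was 1.67 (SE 0.219, adjusted p = 0.00191) and the call held with each library left out in turn (adjusted p between 0.00676 and 0.0267).

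Fzd10, another Frizzled receptor (mm9 chr5:129106719-129109968, plus strand), was the member that the main edgeR fit called down in PMs. It had 17 and 9 counts with siControl and 4 and 2 counts with siTead1/4 at day 0, a log2 fold change of -2.22 (SE 0.444, adjusted p = 0.015). By day 3 it had risen to 7.04 and 6.82 CPM with siControl and to 6.01 and 4.81 CPM with siTead1/4, and it was not called. The day 0 groups did not overlap, but the call was lost without siControl replicate 1 (0.156) or siTead1/4 replicate 2 (0.135). Fzd9 stood lower with siTead1/4 at day 3 in PMs as well, with 5.00 and 6.38 CPM against 9.99 and 17.6 CPM, and at day 0, with 0.729 and 0.988 against 1.91 and 2.34 CPM. It was not called by the main edgeR fit, whereas DESeq2 called it at day 0 (log2 fold change -1.32, adjusted p = 0.0273) and day 3 (-1.29, adjusted p = 0.0176). Other edgeR settings called Fzd9 down as well. Without the filter on low counts the adjusted p was 0.00845 at day 0 and 0.00156 at day 3. With the replicate block it was 0.00879 and 0.00359, and with only the 4 libraries compared 0.0341 at day 0. Fzd8 at day 3 passed the adjusted p (0.0233) with a log2 fold change of 0.93, below the fold threshold. Lrp5 and Lrp6 were called at no day, with log2 fold changes between -0.34 and 0.08.

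Among the ligands the main edgeR fit called Wnt3 alone in PMs. Wnt3, a canonical Wnt ligand (mm9 chr11:103635464-103679271, plus strand), rose in PMs at day 3, from 0.309 and 0.480 CPM (11 and 19 counts) with siControl to 0.987 and 2.14 CPM (46 and 86 counts) with siTead1/4. The groups did not overlap and the log2 fold change was 1.95 (SE 0.435, adjusted p = 0.024). The call was lost without siControl replicate 1 (0.171), siControl replicate 2 (0.0631) or siTead1/4 replicate 2 (0.162). The 11 other tested ligands had log2 fold changes from -2.24 to 1.83 at day 3. The lowest was that of Wnt2, whose siTead1/4 group stood at the floor, and the highest belonged to Wnt10a, with 0.786 and 1.16 CPM against 2.40 and 4.61 CPM (adjusted p = 0.0629), which DESeq2 called (0.00925). DESeq2 also called Wnt11 down at day 3 (log2 fold change -1.52, adjusted p = 0.0282), with 3.59 and 10.4 CPM in siControl and 1.78 and 3.14 CPM in siTead1/4 libraries. Wnt9a at day 0 passed the adjusted p (0.0317) with a log2 fold change of 0.54. Wnt9a was measured at 30.7 and 40.2 CPM with siControl and at 50.6 and 52.9 CPM with siTead1/4.

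Axin2, often read as a reporter of beta-catenin signalling (mm9 chr11:108781663-108812097, plus strand), was called by the main edgeR fit in none of the 6 silencing comparisons. At day 0 in PMs it measured 0.360 and 0.479 CPM with siControl and 0.165 and 0.198 CPM with siTead1/4, without overlap, and the log2 difference of -1.18 was not called (adjusted p = 0.128). It measured 6.12 and 9.20 CPM with siControl and 6.22 and 7.27 CPM with siTead1/4 at day 3 in PMs, and the groups overlapped. Nkd1, an inhibitor that acts through Dishevelled, measured 1.18 and 1.77 CPM with siControl and 4.98 and 7.10 CPM with siTead1/4 at day 3, without overlap. Its log2 fold change of 2.02 was not called by the main edgeR fit (adjusted p = 0.0619) and was called by DESeq2 (0.00602). It was also called by edgeR without the filter on low counts (0.000327), with the replicate block (0.000932) and with only the 4 libraries compared (0.0187). At day 6 edgeR called Nkd1 up without the filter (0.0224) and with the block (0.0227). Of the 3 feedback inhibitors, the main edgeR fit called 0 at each day in PMs. There 1 of the 3 had an unadjusted p below 0.05 at each day (Axin2 at day 0, Nkd1 at day 3 and day 6). Of all 16144 genes, 3756, 3668 and 1914 had such a p at day 0, 3 and 6. DESeq2 called Nkd1 at day 3.

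**Figure D2:**
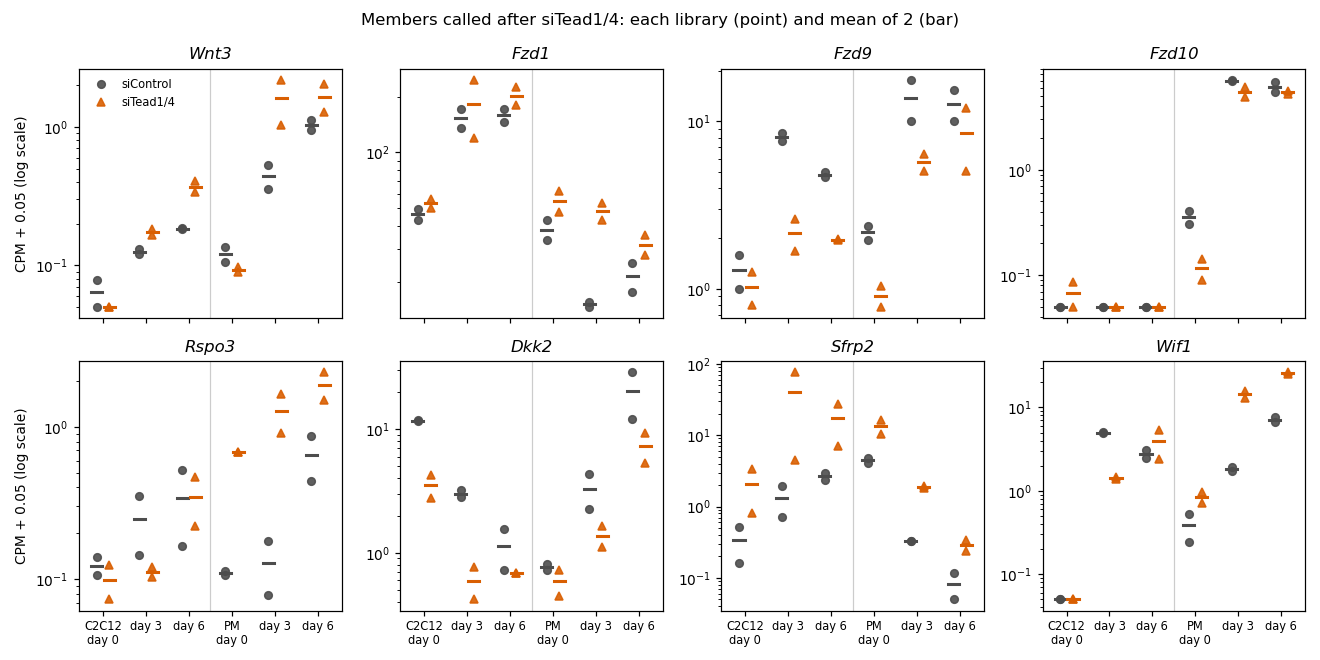
Level of the 8 members called after silencing, as CPM plus 0.05 on a log axis, by cell type and day. Circles are siControl libraries, triangles siTead1/4 libraries and bars the mean of 2. In PMs the Wif1 triangles of day 3, 12.8 and 15.8 CPM, stand above the circles at 1.66 and 1.87 CPM, whereas in C2C12 they stand below them, at 1.32 and 1.41 against 4.88 and 4.98 CPM.

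In C2C12, silencing lowered a receptor and a Dkk inhibitor at day 3 and edgeR called no member at the other days. At day 0 edgeR called 0 of 36 members, compared with 0.137% of 15303 genes up and 0.301% down. At that day 4 members had an unadjusted p below 0.05, as had 1603 of the 15303 genes. DESeq2 called 1 member there and 256 genes in all. At day 3 edgeR called 0 up and 2 down, compared with 0.190% and 1.08%. At day 6 it called 0, compared with 0.0131% and 0.0327%, where 4 members and 1064 of the 15303 genes had an unadjusted p below 0.05. DESeq2 called 2 at day 6, falls of Wnt11 and Fzd9, and 143 genes in all. The median log2 fold change of the tested members was -0.01, -0.01 and 0.18 at day 0, 3 and 6, and 0.02, 0.01 and 0.01 over all genes.

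Dkk2 (mm9 chr3:131748256-131843257, plus strand) measured 3.16 and 2.77 CPM with siControl and 0.714 and 0.370 CPM with siTead1/4 at day 3. The log2 fold change was -2.48 (SE 0.446, adjusted p = 0.0327). At day 0 it measured 11.5 and 11.7 against 2.73 and 4.21 CPM, and neither day showed overlap, but day 0 was not called by edgeR (DESeq2 adjusted p = 0.00186). The day 3 call was lost without siControl replicate 1 (0.163), siControl replicate 2 (0.169) or siTead1/4 replicate 2 (0.13). Fzd9, a Frizzled receptor (mm9 chr5:135724808-135727100, minus strand), measured 7.55 and 8.52 CPM with siControl and 1.64 and 2.57 CPM with siTead1/4 at day 3, again without overlap. Its log2 fold change was -1.96 (SE 0.348, adjusted p = 0.0327), and the call was lost whichever of its 4 libraries was left out (adjusted p between 0.0693 and 0.213).

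In C2C12 the lower Wif1 levels of day 3 were those of siTead1/4. Wif1 had 0 counts in all 4 C2C12 libraries of day 0, and at day 3 it measured 4.88 and 4.98 CPM with siControl and 1.32 and 1.41 CPM with siTead1/4. At day 6 the groups overlapped, with 3.01 and 2.41 CPM against 2.36 and 5.36 CPM. The day 3 log2 difference of -1.87 was not called by the fit of the 12 C2C12 libraries (adjusted p = 0.0822) and was called by DESeq2 (0.00228) and by the fit of all 24 libraries (0.00922). Wnt11, a ligand of the non-canonical branch, measured 1.86 and 2.83 CPM with siControl and 0.556 and 0.695 CPM with siTead1/4 at day 3 in C2C12 (log2 fold change -1.93, adjusted p = 0.0721). It was called by DESeq2 (0.00385) and by the fit of all 24 libraries (0.0449). At day 6 Wnt11 measured 5.51 and 9.22 CPM with siControl and 1.04 and 1.93 CPM with siTead1/4. DESeq2 (log2 fold change -2.305, adjusted p = 0.000303) and the fit of all 24 libraries (0.0497) called it there. Fzd9 measured 4.91 and 4.58 CPM against 1.90 and 1.93 CPM at day 6, which DESeq2 called (log2 fold change -1.31, adjusted p = 0.0359).

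Sfrp2 in C2C12 was far higher in 1 siTead1/4 library of day 3 than in the other. At day 3 the gene measured 0.661 and 1.88 CPM with siControl and 76.3 and 4.47 CPM with siTead1/4. At day 6 the values were 2.93 and 2.34 against 27.4 and 7.0 CPM. Every siTead1/4 value exceeded the siControl values of its day, with log2 differences of 2.67, 4.96 and 2.70 at day 0, 3 and 6, and none was called by the fit of the 12 C2C12 libraries (adjusted p = 0.559, 0.106 and 0.701). That of day 3 was called by DESeq2 (0.00761) and by the fit of all 24 libraries (0.011). Without siTead1/4 replicate 1 the day 3 log2 difference was 1.78. The same library also stood above its replicate for other members: Lgr5 measured 6.35 and 0.0463 CPM in the 2 siTead1/4 libraries, Nkd2 30.0 and 3.31 CPM, Dkk3 18.9 and 2.96 CPM, and Sfrp1 14.8 and 3.52 CPM, chosen after their values were seen. In these siTead1/4 libraries of day 3 the summed fibroblast markers ranged from 2754 to 5852 CPM and the summed myogenic markers from 6319 to 8674 CPM, compared with 3853 to 4729 CPM and 13140 to 13370 CPM with siControl. Their part in the result was not tested, and 0 of the 11 tested myogenic markers were called in any silencing comparison. In bulk RNA, fewer cells of a type and less RNA per cell cannot be told apart.

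**Figure D3:**
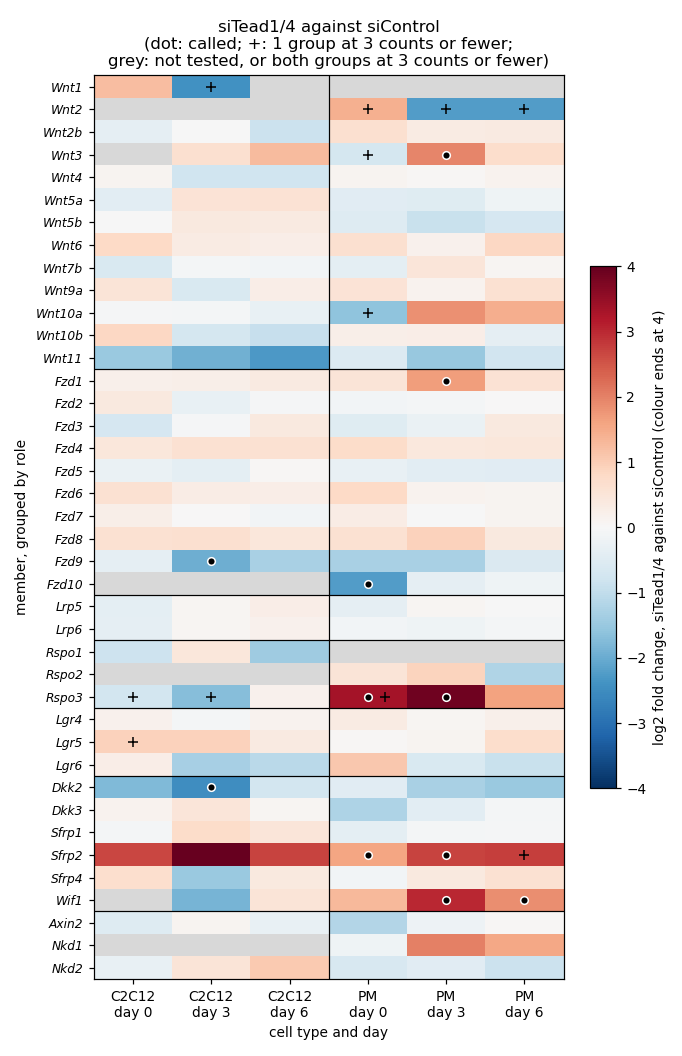
Log2 fold change of siTead1/4 over siControl for the 40 members tested in either cell type, in 6 comparisons; the colours end at 4 in either direction. A dot marks a call, a plus a comparison with 1 group at the floor of 3 counts, and grey a comparison that was not tested or had both groups at the floor. A call is one of the main edgeR fit. Of the 9 dots of PMs 8 are rises, and the 2 dots of C2C12 are falls.

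The difference between the silencing effects in PMs and C2C12 was tested over all 24 libraries. At day 3, 2 of 40 members were called, Wif1 and Rspo3, compared with 1.25% of 16926 genes called in either direction. At day 0 edgeR called 0 of 40, compared with 0.00591%. There 2 members and 725 of the 16926 genes had an unadjusted p below 0.05, and DESeq2 called 0 members and 32 genes in all. At day 6 edgeR called 0, compared with 0.0354%. For that day 4 members and 916 of the 16926 genes had an unadjusted p below 0.05, and DESeq2 called 0 members and 60 genes. For Wif1 the effect in PMs minus that in C2C12 was 4.86 on the log2 scale (SE 0.511, adjusted p = 0.000525), and this call held with each of the 8 libraries of that day left out in turn (adjusted p between 0.000643 and 0.00595). For Rspo3 it was 5.57 (SE 1.15, adjusted p = 0.0239). In C2C12 at day 3, Rspo3 had 4 and 15 counts with siControl and 2 and 3 with siTead1/4, so the siTead1/4 group stood at the floor and the size is that of the fitted model. This call was lost without PM siControl replicate 1 (0.101) or 2 (0.0504), PM siTead1/4 replicate 2 (0.0811), C2C12 siControl replicate 2 (0.257) or C2C12 siTead1/4 replicate 2 (0.0629). For the members called in 1 cell type only, apart from these, the difference of the effects was not called by edgeR at any day. DESeq2 called that of Fzd1 at day 3 (adjusted p = 0.0233).

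During differentiation members of each role rose or fell. In siControl C2C12, 12 members rose and 4 fell of 36 from day 0 to day 3, compared with 16.0% of genes up and 12.7% down, and 14 rose and 4 fell by day 6, compared with 17.1% and 14.0%. In siControl PMs, 12 rose and 9 fell of 38 by day 3, compared with 17.5% and 14.9%, and 14 rose and 7 fell by day 6, compared with 20.2% and 15.3%. The median log2 fold change of the members was 0.70 and 0.93 in C2C12 at day 3 and 6, and 0.35 and 0.79 in PMs, compared with medians of all genes between -0.01 and 0.03. From day 3 to day 6, edgeR called 0 members in C2C12, compared with 0%. For that step 5 members and 406 of the 15303 genes had an unadjusted p below 0.05, and DESeq2 called 0 members and 19 genes. In PMs edgeR called 5 for that step, compared with 2.80% of genes in either direction. Rspo3, Wnt10b, Dkk2 and Wif1 rose and Sfrp2 fell, the last by at least 2.87-fold. Of these, Wif1 alone was called with each of the 4 libraries left out in turn.

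Both cell types up-regulated Axin2, Fzd9, Wif1 and Wnt10a and down-regulated Fzd6, Lgr6 and Wnt10b at day 3, of 34 members tested in both. The share of all genes called alike in both cell types was not counted, so these numbers have no background. Axin2 rose from 0.788 and 0.658 CPM at day 0 to 4.41 and 6.50 CPM at day 3 in siControl C2C12, and from 0.360 and 0.479 to 6.12 and 9.20 CPM in siControl PMs. The groups did not overlap, and the log2 fold change was 2.88 (SE 0.367, adjusted p = 0.000232) in C2C12 and 4.14 (SE 0.334, adjusted p = 2.89e-06) in PMs. Wif1 went from 0 counts to 4.88 and 4.98 CPM in C2C12, at least 71.6-fold higher, and in PMs its log2 fold change was 2.39 (SE 0.339). Fzd9 rose by 2.66 (SE 0.361) and 2.65 (SE 0.429) on the log2 scale in C2C12 and PMs.

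The ligand Wnt10a rose from 18.7 and 17.4 CPM to 83.9 and 101 CPM in C2C12, and from 0.106 and 0.0282 to 0.786 and 1.16 CPM in PMs. Its log2 fold change was 2.31 (SE 0.356) in C2C12 and 3.66 (SE 0.768) in PMs, although the level differed widely between them. Its neighbour in the family, Wnt10b, fell from 10.7 and 15.9 to 5.40 and 4.07 CPM in C2C12 and from 1.53 and 2.25 to 0.168 and 0.430 CPM in PMs. The log2 fold change of Wnt10b was -1.53 (SE 0.410) in C2C12 and -2.68 (SE 0.588) in PMs. Lgr6, an R-spondin receptor, fell from 83.5 and 127 CPM to 3.23 and 5.00 CPM in C2C12 and from 2.20 and 4.71 to 0.337 and 0.101 CPM in PMs. At day 6 Lgr6 was again spread, with 5.53 and 27.4 CPM in C2C12. Fzd6 fell from 59.3 and 93.7 CPM to 32.1 and 32.0 CPM in C2C12, and from 16.4 and 26.5 to 6.90 and 3.87 CPM in PMs. In C2C12 the call of Lgr6 was lost without siControl day 3 replicate 1 (adjusted p = 0.0555) and that of Fzd6 without siControl day 0 replicate 2 (0.0506). That of Wnt10b was lost without siControl day 0 replicate 2 (0.0974) or siControl day 3 replicate 2 (0.104).

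Fzd1, Fzd5, Lgr5 and Dkk2 moved in opposite directions in the 2 cell types at day 3, 4 of the 34. The share of all genes called in opposite directions was not counted either. Fzd1 rose in siControl C2C12 from 43.3 and 49.4 to 135 and 171 CPM and fell in siControl PMs from 33.4 and 43.1 to 14.6 and 15.6 CPM. The log2 fold change was 1.68 (SE 0.312, adjusted p = 0.0021) in C2C12 and -1.40 (SE 0.219, adjusted p = 0.000286) in PMs. The receptor Fzd5 rose from 10.2 and 13.8 to 33.2 and 27.8 CPM in C2C12 (log2 fold change 1.30, SE 0.230). In PMs it fell from 15.2 and 23.1 to 9.17 and 7.05 CPM (-1.29, SE 0.215). That PM call of Fzd5 was lost without siControl day 0 replicate 2.

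Lgr5, a receptor of R-spondins and a marker of stem cells in other tissues, had at most 3 counts in each C2C12 library of day 0 and measured 1.60 and 1.72 CPM at day 3, at least 24.1-fold higher. In PMs Lgr5 fell from 4.01 and 3.55 to 1.26 and 1.24 CPM (log2 fold change -1.65, SE 0.326). The C2C12 call of Lgr5 (adjusted p = 0.0468) was lost whichever of its 4 libraries was left out (adjusted p between 0.0936 and 0.202). Dkk2 fell in C2C12 from 11.5 and 11.7 CPM to 3.16 and 2.77 CPM at day 3 and 0.675 and 1.50 CPM at day 6, with log2 fold changes of -2.01 (SE 0.407) and -3.48 (SE 0.442). In PMs it rose from 0.763 and 0.676 to 4.32 and 2.20 and then 28.9 and 12.0 CPM, with log2 fold changes of 2.11 (SE 0.525) and 4.75 (SE 0.542). The PM call of Dkk2 at day 3 was lost without siControl day 3 replicate 1. The plot of both cell types shows Fzd1, Fzd5, Lgr5 and Dkk2 where the signs of the axes differ. The difference of the differentiation effects between the cell types was not itself tested.

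**Figure D4:**
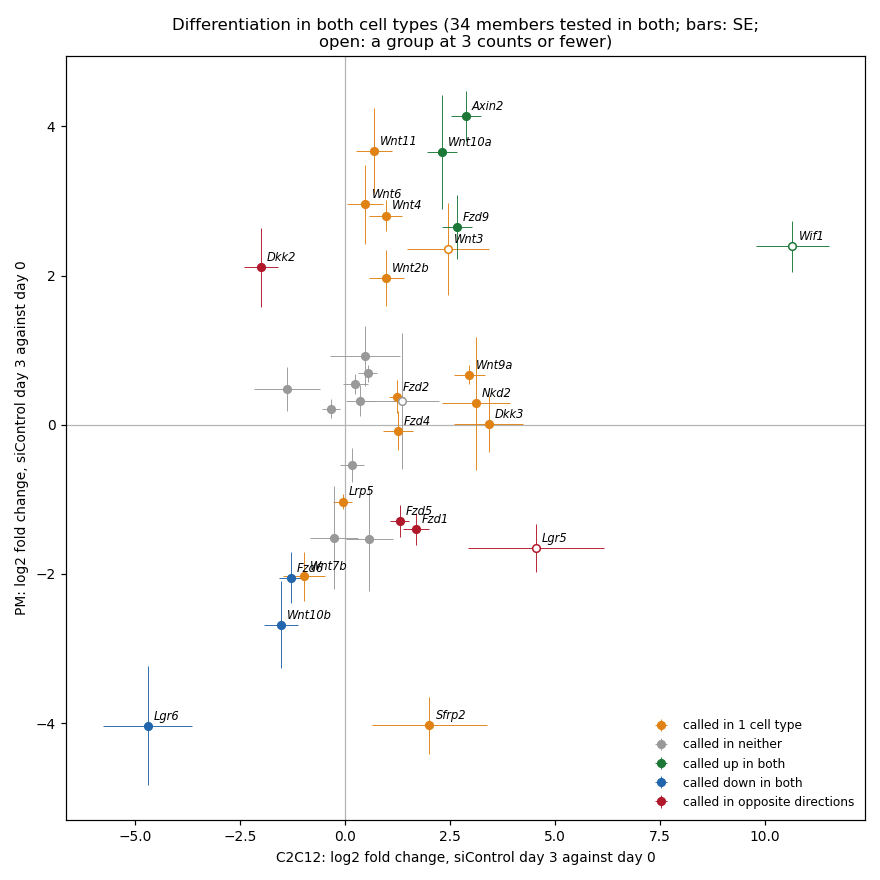
Log2 fold change from day 0 to day 3 in siControl C2C12 (x axis) and siControl PMs (y axis) for the 34 members tested in both, with SE bars. Open symbols mark members with a group at the floor of 3 counts. Axin2 lies at 2.88 and 4.14, whereas Fzd1 (1.68 and -1.40) and Dkk2 (-2.01 and 2.11) lie on the other diagonal.

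The other members with the highest changes were called in 1 cell type. In siControl PMs, Fzd10 rose from 0.360 and 0.254 CPM to 7.04 and 6.82 CPM at day 3 (log2 fold change 4.41, SE 0.290, adjusted p = 8.37e-07), whereas in C2C12 it had 0 counts in 11 of 12 libraries and 1 count in the other. Wnt11 rose in PMs from 0.466 and 0.592 to 3.59 and 10.4 CPM (3.67, SE 0.570). Sfrp2 fell in PMs from 4.79 and 4.06 to 0.281 and 0.278 CPM (-4.03, SE 0.383) and by day 6 was at least 45.4-fold lower than at day 0. In siControl C2C12 Sfrp2 went the other way, from 0.113 and 0.462 CPM at day 0 to 2.93 and 2.34 CPM at day 6. The fit of the 12 C2C12 libraries did not call that rise, whereas the fit of all 24 libraries did (log2 fold change 3.08, adjusted p = 0.0297). In C2C12, Dkk3 rose from 0.816 and 0.604 to 7.93 and 7.63 CPM (3.42, SE 0.822) and Nkd2 from 1.55 and 1.07 to 8.68 and 14.5 CPM (3.12, SE 0.819). The call of Dkk3 was lost without siControl day 0 replicate 2 (adjusted p = 0.0654). That of Nkd2 was lost without siControl day 0 replicate 1 (0.0558) or 2 (0.0882) or siControl day 3 replicate 2 (0.061).

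By role, 5 Frizzled receptors rose and 1 fell of 9 in C2C12 at day 3, whereas 2 rose and 3 fell of 10 in PMs. Among the Wnt ligands, 2 rose and 1 fell of 12 in C2C12, and 6 rose and 2 fell of 12 in PMs. Those that rose in PMs were Wnt2b, Wnt3, Wnt4, Wnt6, Wnt10a and Wnt11, and those that fell were Wnt7b and Wnt10b. In C2C12, Wnt9a and Wnt10a rose, Wnt9a from 7.15 and 7.80 to 62.6 and 57.5 CPM. In PMs Wnt9a was already at 30.7 and 40.2 CPM at day 0 and was not called at day 3, with 62.1 and 55.0 CPM. Of the secreted inhibitors, 2 rose and 1 fell of 6 in each cell type: Wif1 and Dkk3 rose and Dkk2 fell in C2C12, and Wif1 and Dkk2 rose and Sfrp2 fell in PMs. In siControl PMs the fibroblast markers rose over the same days, 4 of 9 tested by day 3 and 7 of 9 by day 6. They rose in siControl C2C12 as well, 6 of 8 tested by day 3 and 5 of 8 by day 6. The part of these markers in the changes was not tested.

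Further ligands and receptors changed with differentiation in PMs. Wnt4 rose in siControl PMs from 1.06 and 1.49 CPM at day 0 to 9.90 and 8.54 CPM at day 3 (log2 fold change 2.81, SE 0.214), and Wnt6 from 0.127 and 0.113 to 0.982 and 1.01 CPM (2.96, SE 0.528). Wnt7b fell from 19.7 and 16.3 to 5.05 and 4.09 CPM (-2.03, SE 0.333). Wnt4 in C2C12 went from 3.72 and 3.64 to 7.10 and 7.71 CPM at day 3, which edgeR did not call in the fit of the 12 C2C12 libraries, whereas DESeq2 (log2 fold change 1.01, adjusted p = 0.0423) and the fit of all 24 libraries (0.0167) did. Wnt4 was called in C2C12 at day 6, with 8.69 and 8.72 CPM (1.20, SE 0.401, adjusted p = 0.0334), a call that was lost without either siControl library of day 0 or either of day 6. Wnt5a rose in PMs by day 6, to 35.5 and 23.0 CPM from 8.80 and 7.35 CPM (1.79, SE 0.405), and stayed at or below 0.334 CPM in siControl C2C12. The co-receptor Lrp5 fell in PMs from 97.3 and 96.3 to 46.9 and 51.8 CPM at day 3 (-1.03, SE 0.103) and to 40.6 and 42.3 CPM at day 6. In siControl C2C12 Lrp5 measured 123 and 116 CPM at day 0 and 115 and 121 CPM at day 3, ranges that overlap. Fzd2 rose in C2C12 from 48.6 and 52.4 to 124 and 120 CPM (1.23, SE 0.179), whereas in PMs the values of 52.1 and 56.5 CPM and then 62.2 and 84.1 CPM were not called.

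PMs held more Wnt5a, Wnt7b and Fzd4 and C2C12 more Wnt10a, Lgr6 and Dkk2 in siControl culture at day 0. At day 0, 11 members were higher in PMs and 11 lower of 40, compared with 16.3% of genes higher and 10.5% lower. At day 3 the counts were 11 and 12, compared with 17.2% and 12.6%, and at day 6 they were 13 and 10, compared with 15.7% and 9.22%. Cell type, strain and culture cannot be told apart in this contrast. Wnt5a, a ligand of the non-canonical branch, measured 8.80 and 7.35 CPM in PMs and 0.113 and 0.195 CPM in C2C12 at day 0 (log2 fold change 5.62, SE 0.658, adjusted p = 3.22e-06). Wnt7b stood at 19.7 and 16.3 CPM in PMs and 1.07 and 0.746 CPM in C2C12 (4.32, SE 0.443), and the receptor Fzd4 at 20.9 and 21.4 against 2.34 and 2.65 CPM (3.08, SE 0.353). Nkd1 was at least 43.7-fold and Fzd10 at least 4.46-fold higher in PMs at day 0, and Fzd10 at least 105-fold higher at day 3.

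In the other direction, Wnt10a differed by -7.91 on the log2 scale (SE 0.676, adjusted p = 8.41e-08) at day 0, Lgr6 by -4.94 (SE 0.979) and Dkk2 by -4.0 (SE 0.520). Rspo1 had at most 3 counts in each siControl PM library and was at least 5.85-fold lower there, a call that was lost without siControl replicate 1 or 2 of PMs or replicate 1 of C2C12. Fzd1 was not called between the cell types at day 0, and at day 3 the log2 difference of PMs from C2C12 was -3.34 (SE 0.299). For Dkk2 the sign turned: lower in PMs at day 0 and higher at day 6, with a log2 difference of 4.27 (SE 0.519).

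The rest of the pathway was followed in 5 lists. The shares of all genes called in each silencing comparison, given above for the members, are the background of these counts, and at day 3 they were 0.190% up and 1.08% down in C2C12 and 2.10% up and 1.20% down in PMs. Of the cytoplasmic transduction and destruction complex genes, such as Ctnnb1, Apc, Gsk3b and the Dvl genes, 19 of 19 were tested and edgeR called 0 in each of the 6 silencing comparisons. Of these 19, Ctnnb1, Csnk1e, Dvl1 and Dvl2 had an unadjusted p below 0.05 in PMs at day 3, as had 3668 of all 16144 genes. Of 15 nuclear effectors, 1 was called, Tle4, a Groucho co-repressor, which fell in C2C12 at day 3 from 8.48 to 2.53 CPM (log2 fold change -1.77, SE 0.343, adjusted p = 0.0396). Of the feedback and target genes, 11 tested in C2C12 and 12 in PMs, Ccnd1, which encodes cyclin D1, was the one called. Ccnd1 rose at day 3 in C2C12 from 15.3 ± 2.51 to 39.4 ± 12.8 CPM (1.34, SE 0.260, adjusted p = 0.0405) and in PMs from 90.0 ± 11.6 to 193.3 ± 21.5 CPM (1.10, SE 0.270, adjusted p = 0.0361).

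Among the secretion genes, co-receptors and further extracellular modulators, edgeR called 0 of 17 in C2C12, and of 21 tested in PMs 1 fell at day 0, 1 rose and 2 fell at day 3, and 1 rose at day 6. Gpc6, a glypican of the cell surface, fell at day 0 in PMs from 29.4 to 13.1 CPM (log2 fold change -1.18, adjusted p = 0.00196). At day 3 in PMs, Porcn, the acyltransferase that lipidates Wnt ligands, fell by 1.07 on the log2 scale, and Ror1, a receptor for Wnt5a, fell by 1.08. Tpbg, a membrane protein that inhibits Wnt signalling, rose by 1.31 at day 3 and by 1.58 at day 6 on that scale. In the planar polarity and calcium branch, 1 of 19 was called in C2C12 (Camk2a at day 3, log2 fold change -1.64) and 1 of 20 in PMs (Daam2 at day 0, -1.13).

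During siControl differentiation the same lists moved as follows by day 3. In C2C12, 6 of 17 extracellular modulators rose and 2 fell, 2 of 19 destruction complex genes rose, 1 of 15 nuclear effectors rose, 4 of 11 targets rose and 3 fell, and 8 of 19 polarity and calcium genes rose and 1 fell. In PMs, 5 of 21 extracellular modulators rose and 8 fell, 3 of 19 destruction complex genes rose, 1 of 15 nuclear effectors rose and 4 fell, 3 of 12 targets rose and 4 fell, and 8 of 20 polarity and calcium genes rose and 2 fell. These counts stand beside the shares of all genes given above for the same comparisons.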

How the data were processed

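Poly(A) RNA of 24 libraries was sequenced, and the values used are the raw read counts per gene as deposited by the authors in a table of 28109 genes on mm9. The submitters' processing notes name CASAVA 1.8.2, TopHat2 2.0.10, Bowtie2 2.1.0, HTSeq 0.6.1 and DESeq2 1.8.1. Such counting leaves out reads that match several places, and without strand, overlapping genes share reads. The normalized values and the values per kb of the table were not used, nor were 36 columns of 12 libraries that carry no label here. The depth per library, between 25453830 and 52784510 counts, limits members with a few counts most.

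Counts were analysed with edgeR 4.0.16 (quasi-likelihood, TMM, filterByExpr) in R 4.3.3, fitting the 12 libraries of a cell type as 6 group means, or all 24 libraries for contrasts between cell types. P-values were adjusted by the Benjamini-Hochberg method over all genes tested, and all tests were two-sided. The scripts were tested on simulated data. Alternatives were another normalization, no filter on low counts, DESeq2 1.42.0, a replicate block, other sets of libraries in the fit and leaving out each library in turn, where the lone library is assumed to vary like the other groups.

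The members, lists and tests were chosen with earlier results of these data known. Full values are given for members called after silencing or for the difference between cell types, for the 4 highest rises and falls from day 0 to day 3, for members of opposite direction and for the 6 highest per kb at day 0. The E-box search was added after the values were seen. Gene coordinates are those of mm9, and promoters are those of RefSeq on GRCm38.p6 and were matched by symbol.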

Additional observations from a re-analysis of the deposited data

Results flagged for a closer look

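The effect of silencing at day 3 differed between PMs and C2C12 for Wif1 and Rspo3, by the interaction term of the edgeR fit over 24 libraries. For Wif1 the effect in PMs minus that in C2C12 was 4.86 on the log2 scale (SE 0.511, adjusted p = 0.000525). For Rspo3 it was 5.57 (SE 1.15, adjusted p = 0.0239), with 1 to 15 counts per library in 3 of the 4 groups compared.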

How the results depend on the processing

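No result changed direction under any alternative, and the median-of-ratios normalization kept all 162 calls of members over the 18 comparisons. Without the filter on low counts, members called rose from 0 to 3, 2 to 6 and 0 to 5 in C2C12 silencing at day 0, 3 and 6, from 3 to 6, 5 to 10 and 1 to 6 in PM silencing, from 0 to 3 in C2C12 and 5 to 8 in PMs from day 3 to day 6, and from 2 to 4 and 0 to 1 for the difference of the silencing effects at day 3 and 6. DESeq2 called 1, 5 and 2 members in C2C12 silencing and 6, 9 and 2 in PM silencing. Over all genes it called 256, 603 and 143 in C2C12 silencing and 454, 588 and 224 in PM silencing. For the other alternatives, the replicate block among them, the counts over all genes are not given, so their member counts have no background. With all 24 libraries in 1 fit, the counts were 5 and 1 in C2C12 silencing at day 3 and 6, 1 in PM silencing at day 0 and 2 in PMs from day 3 to day 6. With only the libraries compared, they were 0 in C2C12 silencing at day 3, 0 in PM silencing at day 6, 1 in PMs from day 3 to day 6 and 1 for the difference at day 3. The causes were not tested. Leaving out 1 library gave 0 to 2 calls in C2C12 silencing at day 3, 0 to 2 and 0 to 1 in PM silencing at day 0 and 6, 10 to 14 and 11 to 15 in C2C12 differentiation by day 3 and 6, 1 to 4 in PMs from day 3 to day 6, and 1 to 5 for the difference at day 3.

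Replicate numbers are not known to pair the libraries: deviations of libraries with the same number correlated at -0.368 to 0.634 in C2C12 and at 0.0765 to 0.698 in PMs, where 13 of 15 pairs were above 0.1, a hint only. With the replicate block, members called were 7, 10 and 5 in PM silencing at day 0, 3 and 6 and 9 in PMs from day 3 to day 6, and 159 of the 162 calls held. The block called Axin2 down in PMs at day 0 (log2 fold change -1.21, adjusted p = 0.0428). Its other added falls in PM silencing were Fzd9 and Dkk3 at day 0, Fzd9, Dkk2 and Wnt11 at day 3 and Dkk2 at day 6. Its added rises were Wif1 at day 0, Nkd1 and Wnt10a at day 3, and Nkd1, Wnt10a and Rspo3 at day 6.

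With 2 libraries a group, members below about 1 CPM, among them Rspo3, Wnt3 and Fzd10 at day 0, rest on few counts.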
